A study of Mus musculus with 12 samples.

Results

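Terminal oligopyrimidine (TOP) mRNAs begin with a cytosine followed by an uninterrupted run of pyrimidines, and mTOR, the kinase that couples nutrient and growth signals to protein synthesis, controls how readily ribosomes load onto them. Most TOP mRNAs encode ribosomal proteins and elongation factors. A smaller number encode other proteins of RNA metabolism and protein folding, of which cytoplasmic poly(A)-binding protein 1 (Pabpc1) is the best known. Pabpc1 coats the poly(A) tail and contacts the initiation complex at the other end of the mRNA. In neurons, mTOR-dependent translation is studied for its part in synaptic plasticity and memory.

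The mRNAs described here were 9 of the 20504 genes in the table of reads counted on coding sequence (CDS). They were chosen by name, as known or proposed TOP mRNAs outside the ribosomal proteins and the eIF and eEF families. A total of 7 are TOP mRNAs by that rule, namely Pabpc1, Tpt1, Npm1, Hnrnpa1, Nap1l1, Gnb2l1 and Naca. The other 2, Pabpc4 and Pabpn1, are further poly(A)-binding proteins and serve as paralog comparisons. All 9 passed the filter on low counts (an average of 37 or more over the libraries tested) in every comparison.

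The measurements came from the brains of 6 adult mice that carried Camk2a-cre and the RiboTag allele, which tags ribosomal protein Rpl22 with hemagglutinin (HA) wherever Cre is active, here in principal excitatory neurons of the forebrain. By the study's methods the mice were 3 months old. Mice C and D received the ATP-competitive mTOR inhibitor AZD-8055 (100 mg/kg by oral gavage) and were killed 1 h later. Mice A and B are labelled untreated and, by the methods, received the captisol vehicle. Each of these 4 mice gave a ribosome footprint library and a poly(A) RNA-Seq library from the same lysate, so all cell types of the tissue contributed to both. Mice E and F, taken here as untreated, each gave an RNA-Seq library of the input and one of the HA immunoprecipitate (IP), which samples polysomes of Cre-expressing cells. The RNA-Seq libraries held between 9309496 and 15585831 CDS counts and the footprint libraries between 3503873 (mouse C) and 9259938 (mouse A). Each group held 2 mice, for which the smallest two-sided p of an exact permutation test is 0.333, so tests were fitted across all genes with edgeR's quasi-likelihood test and Benjamini-Hochberg adjustment, and a gene was called at an adjusted p under 0.05.

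The start sequences of the mRNAs are shown because the pyrimidine run at the 5′ end is what defines the class. For 7 of the 9 (all but Pabpc1 and Npm1), a RefSeq transcription start (GRCm38.p6) was used, and 6 of these are shown. Each sequence runs 5′ to 3′ from 15 bases before that start to the 15th base of the transcript, so that the first transcribed base is base 16. Capitals mark a run that begins with C, goes on with at least 4 C or T, and begins within 5 bases of the annotated start. Nap1l1 lies at chr10:111473212-111473241, Gnb2l1 (RefSeq symbol Rack1) at chr11:48800345-48800374 and Naca at chr10:128035331-128035360, all on the plus strand, and these 3 held such a run. The run of Nap1l1 begins at the annotated start and that of Gnb2l1 spans it. That of Naca ends at the base before it, so none of the run lies in the transcript from that start.
Nap1l1: ggcgggctctcgggtCTTTTTTagcgccat
Gnb2l1: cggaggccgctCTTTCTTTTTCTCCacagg
Naca: gcaactcgttCTCTTaaagaggaaacccgg
The windows of Tpt1 (chr14:75845241-75845270), Hnrnpa1 (chr15:103240382-103240411) and Pabpn1 (chr14:54894128-54894157), also on the plus strand, held no such run at the annotated start.
Tpt1: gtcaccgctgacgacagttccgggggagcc
Hnrnpa1: taccgagagcgaggaggcgggataaaaggg
Pabpn1: cgatcggcgggccccagtctgagcggcgat
The run was present at 18.3% of 32851 RefSeq starts on the transcript strand (21.4% on the opposite strand) at 43.3% of 67 starts of ribosomal protein genes, and at 3 of the 7 starts used (42.9%). A match is a description of these letters at 1 annotated start per entry, and tissues may use other starts. The starts used for Hnrnpa1, Nap1l1 and Pabpc4 (whose window is not shown) lie inside the gene ranges given below, downstream of their first base.

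In the vehicle-treated mice, the 7 TOP mRNAs were spread over a wide range of translation efficiency (TE), which is the ratio of footprints to RNA-Seq reads on the CDS after division by DESeq2 size factors. TE compares the footprints of an mRNA with its own RNA, so that CDS length cancels. Since whole tissue was sampled, fewer cells of a type and less RNA per cell cannot be told apart. Nap1l1, a histone chaperone, had the highest log2 TE of the 9 at 0.85 (mouse A) and 0.93 (mouse B). Next came Npm1, the nucleolar phosphoprotein nucleophosmin, at 0.51 and 0.62, and Naca, the alpha subunit of the nascent polypeptide-associated complex at the ribosomal exit tunnel, at 0.23 and 0.17. These 3 lay above the median of all genes (log2 TE 0.016, 10879 genes with at least 75 counts in each library type).

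The other 4 TOP mRNAs lay below that median. Pabpc1 had a log2 TE of −0.61 and −0.56 in mice A and B, at the 26.2 percentile of genes. Gnb2l1, which encodes the ribosome-bound scaffold RACK1, had −0.66 and −0.83, and Tpt1, which encodes translationally controlled tumour protein, had −0.69 and −0.84. The values of Gnb2l1 and Tpt1 overlapped between the mice, so their order was not resolved. Hnrnpa1, a splicing and RNA export factor, had −1.48 and −1.62, at the 6.91 percentile. Its RNA level, and with it its TE, is uncertain, since the RNA-Seq libraries of mice A to D held 22 to 36 exon counts of Hnrnpa1 against 2380 to 2877 CDS counts, although exons contain the CDS, and the source of this mismatch was not tested. Both paralogs of Pabpc1 were lower still. Pabpn1, which binds poly(A) in the nucleus, had a log2 TE of −1.84 and −1.67 (5.02 percentile), and Pabpc4, a cytoplasmic relative of Pabpc1, had −2.63 and −2.38 (1.51 percentile).

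**Figure D1:**
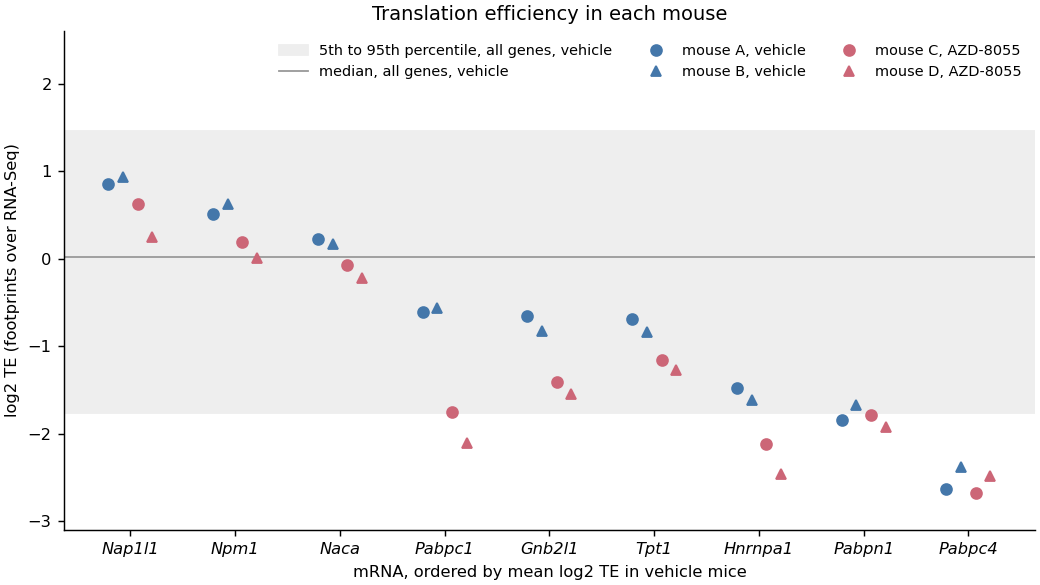
Log2 TE (footprints over RNA-Seq, vertical axis) of the 9 mRNAs in each mouse, ordered by the mean of the vehicle-treated mice A and B (blue), with the AZD-8055 mice C and D in red, the 5th to 95th percentile of all genes in vehicle mice (−1.76 to 1.46) as a grey band and their median as a line. The 7 TOP mRNAs have both red points under both blue points, whereas the points of Pabpn1 overlap. Those of Pabpc4 overlap as well, but its red points rest on 24 and 44 footprints, too few for a place among genes by TE after AZD-8055.

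Tested against the average gene in the model of the TE change, all 9 departed from it. Pabpc1, Gnb2l1, Tpt1, Hnrnpa1, Pabpn1 and Pabpc4 were called lower, and Nap1l1, Npm1 and Naca were called higher. This test calls most genes, 37.3% of 11797 lower and 36.5% higher, so that a call by itself does not set the 9 apart. Relative to the average gene, the fitted log2 TE was −0.55 ± 0.095 (SE) for Pabpc1, −2.49 ± 0.15 for Pabpc4 and 0.93 ± 0.089 for Nap1l1. The call of Naca (0.24 ± 0.073, adjusted p = 0.00699) was lost without mouse A (0.24, adjusted p = 0.0508), with total counts (0.11, adjusted p = 0.162) and with no filter (0.16, adjusted p = 0.122), and these last 2 settings moved the median of all genes by −0.14 and 0.22.

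After AZD-8055, the TE of Pabpc1, Hnrnpa1, Gnb2l1 and Tpt1 fell, and Pabpc1 was the only one of the 9 to fall by more than 2-fold. The log2 TE changes of the other TOP mRNAs were −0.46 for Npm1, −0.45 for Nap1l1 and −0.35 for Naca, and none of these passed the test. The change was −0.014 for Pabpc4 and −0.085 for Pabpn1, and neither was called. The 4 calls of 9 stand beside a background of 0.788% of 11797 genes called lower, 0.0763% called higher and 0.297% called lower with a fold over 2. The 9 were chosen with earlier results of these data known, so this contrast is a description and not an independent test. In all 7 TOP mRNAs the TE of both treated mice lay under that of both vehicle mice, against 20.9% of 11766 genes.

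Pabpc1 (chr15:36595658-36609581, GRCm38.p6) was covered by 1539 and 781 footprints in vehicle mice A and B but only 296 and 305 in treated mice C and D. Scaled by library size and TMM factors, these were 177 and 180 CPM (counts in a library scaled to 1000000) under vehicle and 89.3 and 66.7 CPM after AZD-8055. The RNA-Seq level of Pabpc1 was 267 and 253 CPM under vehicle and 295 and 275 CPM after AZD-8055. Footprints were thus lower in both treated mice without overlap, while RNA was slightly higher in both treated mice. Its log2 TE went from −0.61 and −0.56 to −1.75 and −2.11, a change of −1.34 ± 0.14 (SE), or 2.53-fold, with an adjusted p of 4.3e-05. Only 11 of 11797 genes had a lower change. The percentile of Pabpc1 among genes by TE moved from 26.2 under vehicle to 3.66 after AZD-8055 (9903 genes). The call held in all 10 alternative fits, where the change ranged from −1.50 to −1.17 and the adjusted p from 1.2e-19 to 0.00405.

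Within a library, the ratio of Pabpc1 to Pabpc4 counts needs no scaling. In RNA-Seq it was 5.20 and 5.15 under vehicle and 6.45 and 5.33 after AZD-8055. In footprints it was 21.1 and 18.2 under vehicle and 12.3 and 6.93 after AZD-8055. The footprint ratio was therefore lower in both treated mice, which also differed from each other by more than the vehicle mice did, and no test was run on it. The ratio of Pabpc1 to Pabpn1 in footprints went from 3.30 and 2.57 to 1.43 and 1.16, and in RNA-Seq it was 1.41 and 1.19 under vehicle and 1.39 and 1.31 after AZD-8055. After AZD-8055 the log2 TE of Pabpc1 overlapped that of Pabpn1 (−1.79 in mouse C and −1.93 in mouse D), which had lain well below it under vehicle.

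Pabpc4 (chr4:123282303-123298925) was the sparsest of the 9, with 73 and 43 footprints under vehicle and 24 and 44 after AZD-8055, or 8.40, 9.89, 7.24 and 9.62 CPM. Its RNA-Seq level was 51.4 and 49.1 CPM under vehicle and 45.7 and 51.6 CPM after AZD-8055. The groups overlapped in both measures. The SE of its TE change was 0.24, the widest of the 9, and the sign of the change turned with the setting, from −0.19 to 0.11 over 10 alternatives. Pabpn1 (chr14:54894143-54898927) had 53.7 and 69.9 footprint CPM under vehicle and 62.5 and 57.5 CPM after AZD-8055, against 190, 212, 212 and 209 RNA-Seq CPM in mice A to D. The footprints of Pabpn1 in both treated mice lay within the range of the vehicle mice. Its change in TE was −0.085 ± 0.15 (adjusted p = 0.962).

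**Figure D2:**
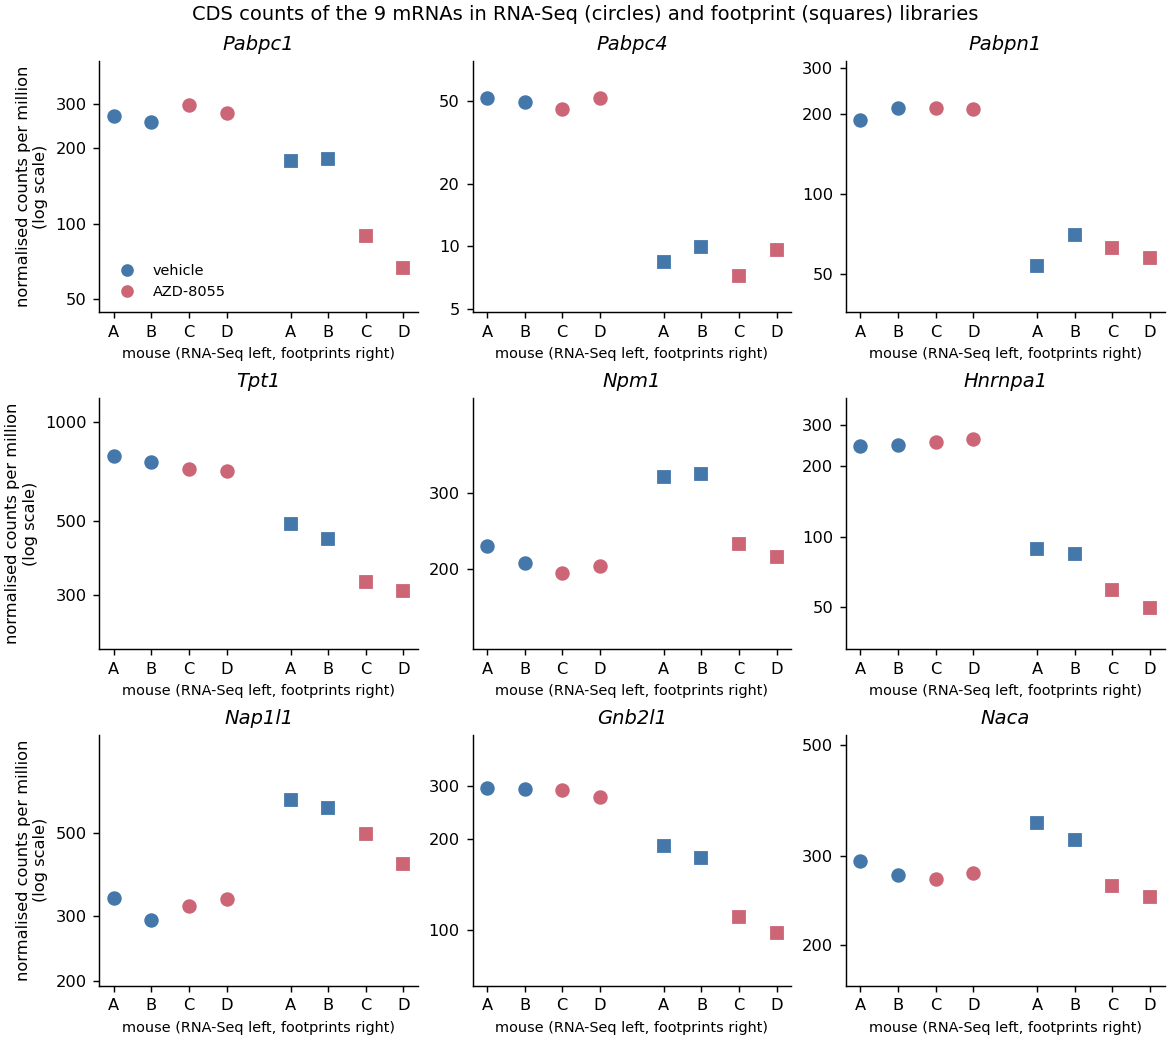
Normalised counts (CPM, vertical axis, log scale, 1 panel per mRNA) in the RNA-Seq (circles, left) and footprint (squares, right) libraries of vehicle-treated mice A and B (blue) and AZD-8055-treated mice C and D (red). Footprints of Pabpc1 lie at 177 and 180 under vehicle and at 89.3 and 66.7 after AZD-8055, while the 4 RNA-Seq values of each mRNA lie close together.

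Hnrnpa1 (chr15:103239943-103246698) had 88.6 and 84.4 footprint CPM under vehicle and 59.4 and 49.8 CPM after AZD-8055, against 244, 247, 255 and 262 RNA-Seq CPM. Gnb2l1 (chr11:48800360-48806241) had 189 and 173 footprint CPM under vehicle and 110 and 97.9 CPM after AZD-8055, against 295, 293, 289 and 274 RNA-Seq CPM. Neither gene had overlapping footprint values, and the RNA-Seq values of Hnrnpa1 carry the mismatch of exon and CDS counts given above. The TE of Hnrnpa1 changed by −0.75 ± 0.12 (adjusted p = 0.00236) and that of Gnb2l1 by −0.75 ± 0.11 (adjusted p = 0.00188), a 1.68-fold fall in each. The call of Hnrnpa1 was lost without mouse A (−0.70, adjusted p = 0.138) and without mouse D (−0.59, adjusted p = 0.0722). That of Gnb2l1 was lost without mouse A (−0.68, adjusted p = 0.0816).

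Tpt1 (chr14:75845256-75848303) was the most counted of the 9 in RNA-Seq, with 786 and 753 CPM under vehicle and 720 and 710 CPM after AZD-8055. Its footprints were 492 and 441 CPM under vehicle and 327 and 309 CPM after AZD-8055. Both measures were lower in both treated mice, the footprints by more. The TE change of −0.45 ± 0.10 was the weakest call (adjusted p = 0.0421), and it was lost when any 1 mouse was left out, with adjusted p from 0.104 to 0.530, and with relative log expression factors (−0.44, adjusted p = 0.0837). RefSeq lists 7 pseudogenes named after Tpt1, and reads shared with near-identical copies could not be assigned by the unique mapping the authors used, so its level is uncertain. Pseudogenes under other symbols were not counted for any of the 9, so the same limit may apply to other members.

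Npm1 (chr11:33152498-33164142) had 326 and 331 footprint CPM under vehicle and 228 and 213 CPM after AZD-8055, against 226, 206, 196 and 203 RNA-Seq CPM. Nap1l1 (chr10:111472882-111498150) had 613 and 583 footprint CPM under vehicle and 498 and 414 CPM after AZD-8055, against 335, 292, 318 and 333 RNA-Seq CPM. Naca (chr10:128035346-128048637) had 349 and 323 footprint CPM under vehicle and 262 and 249 CPM after AZD-8055, against 294, 275, 270 and 278 RNA-Seq CPM. The footprints of all 3 were lower in both treated mice, without overlap. Their TE changes were −0.46 ± 0.11 (adjusted p = 0.0646) for Npm1, −0.45 ± 0.13 (adjusted p = 0.216) for Nap1l1 and −0.35 ± 0.10 (adjusted p = 0.306) for Naca. With the mouse as a replicate block, which pairs the footprint and RNA-Seq libraries of 1 animal, Npm1 (adjusted p = 0.00680) and Nap1l1 (adjusted p = 0.0111) were called as well, which made 6 calls of 9. In that fit 116 of 11797 genes were called lower in place of 93, and 31 were called higher in place of 9. Npm1 and Nap1l1 were also called with no filter (Npm1 −0.51, adjusted p = 0.0201, and Nap1l1 −0.49, adjusted p = 0.0132), where 118 of 19474 genes were called lower. Npm1 was called with DESeq2 too (−0.46, adjusted p = 0.0255).

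Footprints alone fell in 6 of the 9, where 0.982% of 10695 genes were called lower and 0.0468% higher. The log2 changes were −1.21 ± 0.12 for Pabpc1 (adjusted p = 2.7e-04), −0.81 ± 0.088 for Gnb2l1 (adjusted p = 6.7e-04), −0.67 ± 0.11 for Hnrnpa1 (adjusted p = 0.0132), −0.58 ± 0.075 for Npm1 (adjusted p = 0.00273), −0.55 ± 0.078 for Tpt1 (adjusted p = 0.00407) and −0.40 ± 0.076 for Naca (adjusted p = 0.0377). Nap1l1 had −0.39 ± 0.088 (adjusted p = 0.0827) and was called with DESeq2 (−0.39, adjusted p = 0.00599). Its change was −0.53 without mouse C, a fit that left 1 treated mouse. Both treated mice lay under both vehicle mice in 7 of the 9, against 22.6% of genes. The count of 6 dropped to 3 without mouse A and to 2 without mouse B, when the calls of Hnrnpa1 (adjusted p = 0.146 and 0.183), Tpt1 (0.0841 and 0.0506) and Naca (0.525 and 0.266) were lost in both cases and that of Npm1 without mouse B (0.100). Pabpc1 and Gnb2l1 kept theirs. Over the 7 TOP mRNAs together, the share of all CDS counts went from 0.210% and 0.202% of footprints under vehicle to 0.149% and 0.135% after AZD-8055, and from 0.254% and 0.244% of RNA-Seq reads to 0.240% and 0.241%.

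No RNA change among the 9 was called by edgeR's quasi-likelihood test. The log2 changes ranged from −0.13 for Npm1 to 0.11 for Pabpc1, with adjusted p from 0.607 to 0.939. None of the 9 had an unadjusted p under 0.05 (lowest 0.0514, Tpt1), and DESeq2 called none. Over all genes 0.148% of 12182 were called, in either direction.

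**Figure D3:**
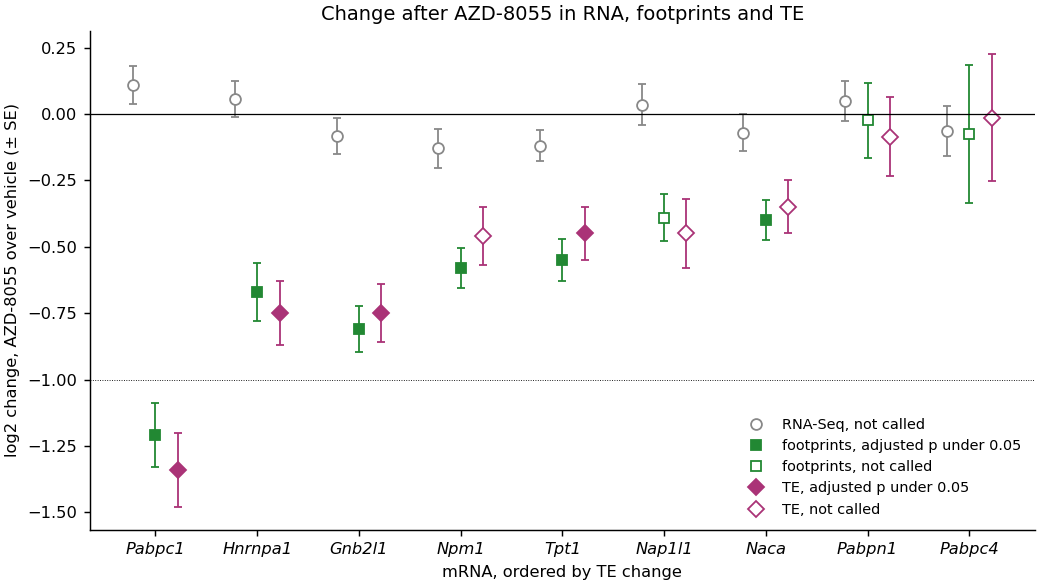
Log2 change after AZD-8055 (vertical axis, ± SE) in RNA-Seq (grey circles), footprints (green squares) and TE (purple diamonds) for the 9 mRNAs, ordered by TE change, with filled symbols at an adjusted p under 0.05 and a dotted line at a 2-fold fall. Pabpc1 alone lies beyond that line, at −1.21 in footprints and −1.34 in TE, and every RNA change lies between −0.13 and 0.11.

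Set beside the ribosomal proteins, whose mRNAs form the core of the TOP class, Pabpc1 lay at the far end and the other TOP mRNAs among the smaller changes. Of 75 ribosomal protein genes tested, 3 had a lower TE change than Pabpc1. By contrast 51 were lower than Hnrnpa1, 52 lower than Gnb2l1, 72 lower than Tpt1, Npm1 and Nap1l1, and all 75 lower than Naca and both paralogs. The median log2 TE change was −0.46 over the 7 TOP mRNAs, −0.89 over 45 large subunit genes (42 called lower, Rpl13a lowest at −1.35, Rplp2 highest at −0.35) and −0.95 over 30 small subunit genes (29 called lower, Rps12 lowest at −1.36). Over all genes the median was −0.011, and 0.788% of 11797 were called lower. Among 6 elongation factor genes 4 were called lower with a median of −0.77, from −1.59 for Eef1a1 to −0.14 for Eef1a2, the form of eEF1A made by mature neurons. Of 21 genes for subunits of eIF3 and eIF4 factors, 6 were called lower and the median was −0.18, with Eif3f lowest at −1.26 and Eif4g3 highest at 0.065. These lists were described by their counts and medians, and the differences between them and the 9 were not tested.

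Among 13 further proposed TOP mRNAs without a ribosomal protein symbol, Fau, which encodes a ubiquitin-like protein fused to a small subunit protein, and Pfdn5, a prefoldin subunit, were called lower in TE. Their log2 changes were −0.96 ± 0.10 (adjusted p = 5.0e-05) and −0.68 ± 0.11 (adjusted p = 0.00236). Over all genes, 0.788% of 11797 were called lower. All 13 of these mRNAs had a value under 0, with a median of −0.36, and the highest was −0.17 for Ybx1. Of all genes tested, 49.4% lay under −0.014, the change of Pabpc4. Btf3, the beta subunit that pairs with Naca, had −0.27 (adjusted p = 0.553).

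Family relatives of the 9 did not include a called TE change, where 0.788% of 11797 genes were called lower and 0.0763% higher. Of 21 such genes 14 were tested, with a median of −0.074, none called by edgeR's quasi-likelihood test or DESeq2 and 1 at an unadjusted p under 0.05 (Nacad, 0.34, the highest). Among the hnRNP A relatives of Hnrnpa1, the values were −0.14 for Hnrnpa2b1, −0.19 for Hnrnpa3 and 0.15 for Hnrnpa0. The Nap1l relatives of Nap1l1 gave −0.21 for Nap1l2 (the lowest), −0.11 for Nap1l3, −0.048 for Nap1l4 and 0.078 for Nap1l5. The G protein beta subunits, which share the WD repeat fold of Gnb2l1, gave −0.18 for Gnb1, 0.15 for Gnb2, −0.10 for Gnb4 and 0.035 for Gnb5, and Npm3 and Btf3l4 gave 0.067 and −0.20. Pabpc1l, Pabpc2, Pabpc5, Pabpc6, Pabpn1l, Npm2 and Gnb3 did not pass the count filter.

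Among proteins that act with Pabpc1 or bind TOP mRNAs, no TE change was called, beside 0.788% of 11797 genes called lower and 0.0763% higher. Of 18 such genes, which include the Pabpc1 regulators Paip1 and Paip2, the TOP-binding protein Larp1 and the deadenylase subunits Pan2 and Pan3, none was called by edgeR's quasi-likelihood test or DESeq2, and none had an unadjusted p under 0.05. The median was −0.084, from −0.24 for Tia1 to 0.32 for Pan2. Larp1 itself had −0.061 ± 0.12.

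**Figure D4:**
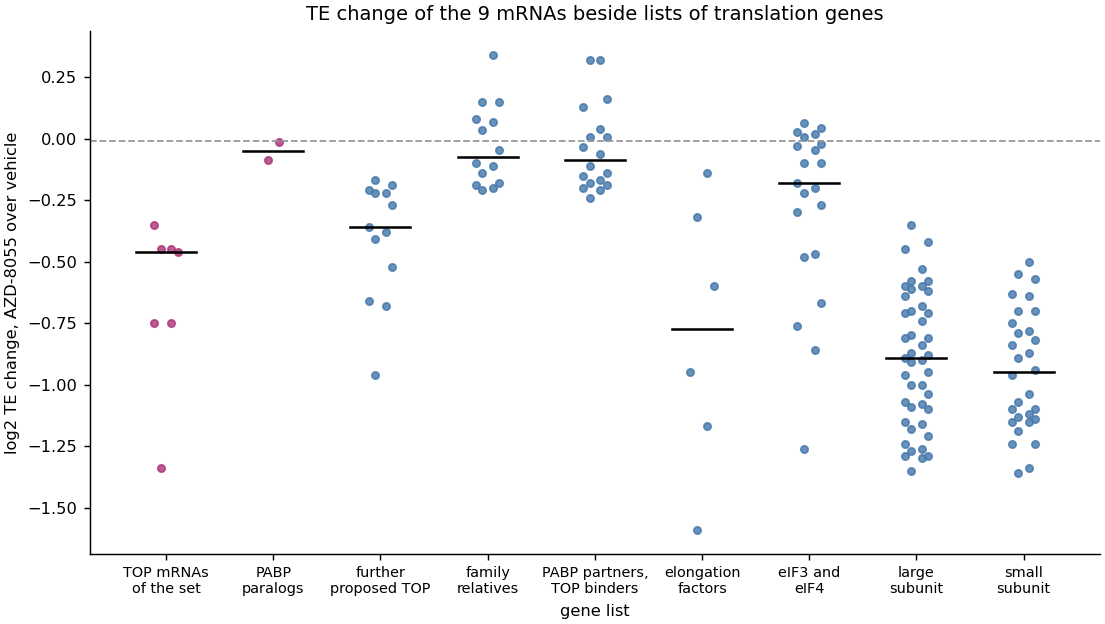
Log2 TE change after AZD-8055 (vertical axis) of each tested gene (points) in lists of translation genes (horizontal axis), with the 7 TOP mRNAs and 2 paralogs in purple, black bars at list medians and a dashed line at the median of all genes (−0.011). Pabpc1, at −1.34, lies at the low end of the ribosomal protein range, and the other 6 TOP mRNAs lie between −0.75 and −0.35.

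No cell type marker was called between treated and vehicle tissue, where few genes of any kind were called. The shares over all genes were 0.788% lower and 0.0763% higher in TE, 0.982% and 0.0468% in footprints, and 0.148% in RNA. Of 38 markers of excitatory and inhibitory neurons, astrocytes, oligodendrocytes and their precursors, microglia and endothelium, none was called in TE (2 at an unadjusted p under 0.05), in footprints (7) or in RNA (7) by edgeR's quasi-likelihood test, and DESeq2 called none. Summed footprints separated without overlap for 3 of the 7 sets. Such separation is common with 2 mice a group. In 22.6% of 10695 single genes the footprints of both treated mice lay under those of both vehicle mice. The share was not counted for the other direction or for RNA-Seq. They were 4337 to 4428 CPM under vehicle and 4919 to 4960 CPM after AZD-8055 for the 7 excitatory markers, 1985 to 2042 and 2129 to 2184 CPM for the 6 inhibitory markers, and 150 to 167 and 125 to 149 CPM for the 5 endothelial markers. The excitatory (3995 to 4084 and 4118 to 4522 CPM) and inhibitory (1120 to 1168 and 1222 to 1263 CPM) sums also separated in RNA-Seq. In footprints the groups overlapped for the oligodendrocyte markers (2982 to 3022 and 2742 to 3135 CPM), their precursors, astrocytes and microglia. No marker was at 0 in any group. The part of cell composition in the TE changes was not tested.

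The RiboTag IP asked how strongly each mRNA was represented on polysomes of Camk2a-expressing neurons, relative to the whole tissue. Naca, Tpt1, Gnb2l1, Npm1, Nap1l1 and Pabpc4 were higher in the IP than in the input. Pabpc1, Hnrnpa1 and Pabpn1 were not called. The 6 calls of 9 compare with 36.5% of 12211 genes called higher and 39.0% called lower, and the 4 with a fold over 2 (Naca, Tpt1, Gnb2l1 and Npm1) with 20.4%. With total counts only Naca stayed over 2-fold (log2 1.16, against 0.84 for Tpt1, 0.78 for Gnb2l1 and 0.58 for Npm1), and likewise with exon counts (1.15, against 0.88, 0.76 and 0.70), while Npm1 alone dropped under it at 200 counts on average (0.82).

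Naca rose from 203 CPM (input) to 600 CPM (IP) in mouse E and from 215 to 668 CPM in mouse F, a log2 change of 1.60 ± 0.11 (adjusted p = 4.4e-06). Tpt1 went from 536 to 1271 CPM and from 610 to 1507 CPM (1.28 ± 0.12, adjusted p = 1.8e-05). Gnb2l1 went from 197 to 441 CPM and from 209 to 507 CPM (1.22 ± 0.12, adjusted p = 2.0e-05). Both mice thus gave closely similar values for these 3. Npm1 had 144 and 288 CPM in mouse E and 169 and 349 CPM in mouse F (1.02 ± 0.14, adjusted p = 1.5e-04), and Nap1l1 had 273 and 461 CPM and 293 and 547 CPM (0.83 ± 0.12, adjusted p = 2.3e-04). These 5 mRNAs were called higher under all 7 alternatives that gave a test.

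The poly(A)-binding proteins behaved less alike. Pabpc1 measured 229 CPM (input) and 208 CPM (IP) in mouse E and 237 and 182 CPM in mouse F, a log2 change of −0.26 ± 0.12 (adjusted p = 0.0727). It was called lower with the mouse as a replicate block (−0.26, adjusted p = 0.0107), with exon counts (−0.59, adjusted p = 0.00443), under the stricter filter of 200 counts on average (−0.46, adjusted p = 0.00535) and with scaling by total counts (−0.70, adjusted p = 6.9e-04). The last of these moved the median of all genes by −0.44, so that 32.5% of its calls were higher in place of 48.3%. Pabpc4 had 49.7 and 74.8 CPM in mouse E and 49.0 and 66.1 CPM in mouse F (0.51 ± 0.13, adjusted p = 0.00502). The call of Pabpc4 was lost with exon counts (0.082, adjusted p = 0.553) and with total counts (0.075, adjusted p = 0.603). The within-library ratio of Pabpc1 to Pabpc4 dropped from 4.60 in the input to 2.78 in the IP of mouse E and from 4.85 to 2.76 in mouse F.

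Pabpn1 differed between the mice, at 209 CPM (input) and 158 CPM (IP) in mouse E but 172 and 213 CPM in mouse F. Its log2 change was −0.040 ± 0.16, −0.41 without mouse F and 0.34 without mouse E, and it was called lower with total counts (−0.48, adjusted p = 0.0253). Hnrnpa1 had 249 and 282 CPM in mouse E and 268 and 312 CPM in mouse F (0.20 ± 0.11, adjusted p = 0.137), and it was called higher with the replicate block (adjusted p = 0.0288). Its exon counts were 26 to 71 in the inputs and IPs, against CDS counts of 2258 to 4852, the same mismatch as in mice A to D, so that its level in the IP and input is uncertain in both tables.

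**Figure D5:**
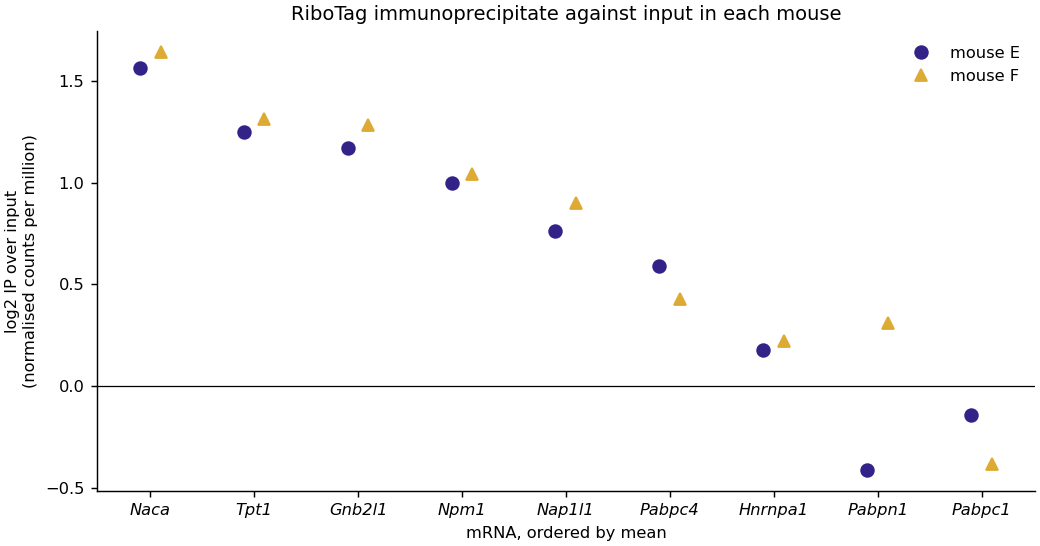
Log2 ratio of normalised counts (CPM) in the RiboTag IP over the input (vertical axis) for the 9 mRNAs in mouse E (circles) and mouse F (triangles), ordered by their mean. Naca lies highest at 1.56 and 1.64, Pabpc1 lies under 0 in both mice at −0.14 and −0.38, and Pabpn1 has opposite signs in the 2 mice.

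Libraries of input and IP also differed in other respects. Of all 12211 genes tested, 36.5% were called higher in the IP and 39.0% lower. Of the 7 excitatory neuron markers 5 were called higher in the IP (median 0.82, Nrgn highest at 2.50), and 2 were called lower, among them Camk2a, whose promoter drives Cre (−0.66, adjusted p = 0.00528). Of the other 31 markers 30 were called lower, and the microglial marker Aif1 had 0.19 (adjusted p = 0.479). The medians were −1.99 for inhibitory neurons (6 of 6 called lower), −3.61 for astrocytes (6 of 6), −2.71 for oligodendrocytes (6 of 6), −3.23 for their precursors (3 of 3), −3.96 for microglia (4 of 5) and −3.39 for endothelium (5 of 5). Summed levels ranged from 4166 to 4466 CPM in the inputs and from 7977 to 8572 CPM in the IPs for the excitatory markers, from 1922 to 2025 and from 209 to 216 CPM for the oligodendrocyte markers, and from 708 to 796 and from 110 to 121 CPM for the astrocyte markers. The median gene had a log2 ratio of exon to CDS counts of 0.56 (mouse E) and 0.58 (mouse F) for input and 0.83 and 0.92 for IP. The part of these differences in the enrichment of the 9 was not tested.

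In the same comparison, all 75 ribosomal protein genes (medians 1.35 and 1.33 for the large and small subunits, from 0.64 for Rps12 to 2.02 for Rpl24) and all 6 elongation factor genes (median 1.18, from 0.43 for Eef2 to 1.66 for Eef1a2) were called higher in the IP. Over all genes, 36.5% of 12211 were called higher and 39.0% lower. None of the 75 ribosomal protein genes had a lower value than Pabpc1 or Hnrnpa1, and 62 lay under Naca. Of 21 eIF3 and eIF4 genes 17 were called higher (median 0.87, Eif3k 1.93) and 1 lower (Eif3a, −1.29). Of the 13 further proposed TOP mRNAs 8 were called higher (Fau 1.76) and 5 lower (Vim −2.37), with a median of 0.99. Of the 14 relatives tested 7 were called higher, beside the 36.5% of all genes called higher (Gnb2 1.74, Hnrnpa0 1.18, Hnrnpa2b1 0.62, Hnrnpa3 0.53, Npm3 1.47, Gnb5 1.11 and Btf3l4 0.88). The lowest relative was Nacad at −0.20. Of the 18 proteins that act with Pabpc1 or bind TOP mRNAs 12 were called lower, beside the 39.0% of all genes called lower, and 4 were called higher. Their median was −1.12, from −2.24 for Tia1 to 1.23 for Larp1b, with Larp1 at −0.73. The median of all genes was −0.067.

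Across all 12 libraries, the genes nearest to each mRNA by the Euclidean distance between centred log2 CPM were taken as a description of its pattern. The nearest to Gnb2l1 included Rpl5 (0.243) and Rpl39, and the nearest to Tpt1 were Gnb2l1 (0.365), Rpl7 and Rpl7a. Those nearest to Naca were Minos1 (0.233), Tubb5 and Aimp2, to Npm1 Eif2s2 (0.295), Hspd1 and Tcp1, and to Nap1l1 Pitpna (0.340), Arl1 and Ssb. Pabpc1 lay farthest from its nearest gene of the 9. The genes nearest to it were Zfp51 at 0.804, Srpr at 0.827, Cdk8 at 0.895, Cpsf4 at 0.899 and Rbm12b2 at 0.921. Hnrnpa1 was nearest to Lnx1 (0.670), Phtf1 and Mbd5, Pabpc4 to Pomgnt1 (0.419), B4galnt4 and Wwc1, and Pabpn1 to Dcaf15 (0.461), Slc50a1 and Prr14. Among the 9 themselves the closest pair was Gnb2l1 and Tpt1, then Nap1l1 and Npm1 at 0.591, and the most distant were Pabpc4 and Nap1l1 at 5.26. These distances mix library type with condition and carry no test.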

How the data were processed

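Values were CDS counts of 12 libraries and exon counts of the 8 RNA-Seq libraries, which the authors deposited as raw, unnormalised read counts per gene. For the footprints the authors trimmed reads, clipped poly(A) stretches, removed rRNA reads with Bowtie2, aligned with TopHat2 and counted uniquely mapped reads with HTSeq. The submitters' processing notes name mm10. The annotation and strand setting are not given in the sources used here. Entries whose symbols had become dates (27, 0.364% of counts) were kept.

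Tests used edgeR 4.0.16 in R 4.3.3 (quasi-likelihood test, TMM factors from 0.855 to 1.16, Benjamini-Hochberg adjustment) on genes whose counts averaged 37 or more over the libraries tested. The SE given with a log2 change was the size of the change divided by the square root of the F statistic of its test. The TE change was the interaction of library type and treatment over 8 libraries, in place of RiboDiff, which the study used. TE used DESeq2 1.42.0 size factors, and a gene entered the ranking by TE with 75 counts in each library type summed over both mice. Normalised CPM used TMM over the 8 libraries of mice A to D and, separately, over the libraries of mice E and F. The ratios of IP over input in each mouse used the latter. Only the distances to the nearest genes used TMM over all 12 libraries. Tables were made with Python 3.11.15, pandas 2.3.3, numpy 2.4.6 and matplotlib 3.10.9.

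Libraries with 1 mouse letter come from the same animal. The difference between mice of a group correlated between library types at 0.243 (A and B), 0.197 (C and D) and 0.476 (E and F) over genes. Replicates differed by more than counting error (chi-square per degree of freedom from 2.61 to 9.53). The alternatives were DESeq2, other scalings, other count filters, exon counts, the mouse as a block and leaving out each mouse, and those for the test of TE against the average gene were added after the data were seen.

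The tests were checked on simulated counts in which 200 genes changed by 2-fold. They recovered 71.0% of these for TE, 92.5% for footprints, 93.0% for RNA and 85.0% for the IP. Of the calls, 5.96%, 3.14%, 6.06% and 2.30% were false, in the same order. Smaller changes were not simulated. The members and gene lists were chosen with earlier results of these data known. All 9 members are named, and of each list the genes with the highest and lowest change and family relatives. The nearest genes are the 5 nearest to Pabpc1 and the 3 nearest to each other member. Other genes were named after their values were seen. Some items that these rules cover are not reported here.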

Additional observations from a re-analysis of the deposited data

How the results depend on the processing

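The TE fall of Pabpc1 and the absence of a called TE or RNA change in Pabpc4 and Pabpn1 held in every alternative run. Of 465 values recomputed for single mRNAs, 404 kept their direction and side of the threshold or moved by less than the spread between mice. The replicate block, which pairs libraries of 1 mouse, changed no TE call beside those of Npm1 and Nap1l1 and no IP call beside those of Pabpc1 and Hnrnpa1, the latter 2 giving 1 member called lower in the IP. With the block, 5176 of 12211 genes were called lower in the IP. In each fit without 1 mouse, the lone mouse of its group was assumed to vary like the others, and the IP without 1 mouse gave values with no test. Pabpc4 rested on 24 to 73 footprints, with an SE of 0.24 against 0.13 for Nap1l1, whose TE change of −0.45 was not called. Each SE was computed back from the change and its F statistic, so it is rough for a change as near 0 as that of Pabpc4. A change of −0.45 in Pabpc4 may have gone undetected at this depth, which was not tested. The causes of the changes below were not tested.

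Genes called higher in TE, 9 in the test as reported, were 15 with DESeq2, 23 with no filter, 19 at a minimum of 200 counts on average, 31 with the block and 1 to 7 without 1 mouse, while those called lower, 93 as reported, were 55 to 73 without 1 mouse. Members called lower in TE, 4 as reported, were 5 with DESeq2, 6 with no filter, 6 with the block, 3 with relative log expression factors and 1 to 3 without 1 mouse. For footprints, genes called higher (5 as reported) were 9 with DESeq2, 14 with total counts, 60 with no filter, 27 at 200 counts and 2 to 355 without 1 mouse. Those called lower (105) were 204 with no filter and 61 to 482 without 1 mouse, and members called lower (6) were 2 to 7. For RNA, genes called lower (11) were 21 with DESeq2, 20 with total counts, 48 with no filter and 10 to 29 without 1 mouse, and those called higher (7) were 30 with no filter, 4 at 200 counts and 3 to 13 without 1 mouse, so that 25.0% of DESeq2's RNA calls were higher in place of 38.9%. For the IP, members called lower (0) were 2 with total counts, 1 at 200 counts, 1 with exon counts and 1 with the block. All genes called lower, 4766 of 12211 as reported, were 6272 of 12211 with total counts, 3400 of 8432 at 200 counts, 4731 of 13254 with exon counts and 5176 of 12211 with the block. Genes higher by over 2-fold (2493) were 1193, 1534 and 1545 with total counts, at 200 counts and with exon counts. The vehicle log2 TE of the 7 TOP mRNAs relative to all genes (median −0.60) was −0.68 at 200 counts. Over all genes, those called lower in TE were 116 of 11797 with the block and 118 of 19474 with no filter, in place of 93.

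Signs that turned belonged to values that were not called as reported. The TE change of Pabpc4 was 0.028 with total counts, 0.019 at 200 counts and −0.19 to 0.11 without 1 mouse (0.11 without B, 0.068 without C), and that of Pabpn1 was −0.22 to 0.0045 (without B). The footprint change of Pabpc4 was −0.31 to 0.094 without 1 mouse (0.033 without B, 0.094 without C), and that of Pabpn1 was −0.23 to 0.16 (0.16 without B, 0.044 without D). The RNA change without 1 mouse was −0.028 (without A) to 0.13 for Pabpn1, −0.16 to 0.027 (without C) for Pabpc4, and −0.057 (without B) to 0.14 for Nap1l1, with −0.0038 without D. In the IP, Pabpn1 was 0.016 with DESeq2 and with relative log expression factors, 0.026 with no filter and −0.41 to 0.34 without 1 mouse (0.34 without E), and Hnrnpa1 was −0.24 with total counts, −0.0089 at 200 counts and −0.38 with exon counts, which for this gene numbered only 26 to 71.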
